A study of Mus musculus with 9 samples.

Results

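Immunoglobulin genes were followed one library at a time in RNA-seq of mouse bone marrow (BM) endothelial cells (ECs). Members were the deposited rows whose gene name opens with a heavy, kappa or lambda prefix (Ighv, Ighm, Ighg, Igha, Ighd, Ighe, Ighj, Igkv, Igkc, Igkj, Iglv, Iglc or Iglj), without Ighmbp2 and names holding -ps, plus Jchain. This took 398 of the 46078 rows, which held 13 constant genes, 350 variable genes, 14 joining segments, 20 diversity segments and Jchain. Of these, 207 had at least 1 count in some library and 191 were at 0 in all 9. The libraries came from wild type B6 mice, with no treatment named, and were made from sorted CD45- Ter119- CD31+ cells of the marrow. The labels split them into Sca-1+ ECs (4 libraries, ending in 7, 13, 15 and 19) and Sca-1- ECs (5 libraries, ending in 8, 10, 14, 16 and 22), and give no age. Sca-1+ 15 and Sca-1- 16 carry the same mouse number in their titles. Sca-1- 8 and Sca-1+ 19 each carry a different number in that place. Whether libraries other than 15 and 16 were separate mice is not stated. The p-values thus measure the spread between these libraries. The titles also hold a code whose meaning is not given, CD452 in 13, 14 and 22 (without the letters in 10) and wt in 8, 15, 16 and 19, while the genotype field reads wild type for all 9.

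An antibody is built from heavy chains paired with kappa or lambda light chains. In a developing B cell a variable, a diversity (heavy chain only) and a joining segment are cut and joined, and the joined exon is spliced to a constant gene, so each B cell clone uses its own variable genes. Ighm and Ighd encode the constant parts of IgM and IgD, which B cells make first, and class switching later moves the same variable exon to a gene for IgG (Ighg), IgE (Ighe) or IgA (Igha). B cells mature in the marrow, and long-lived plasma cells, which give much of their mRNA to antibody, also lodge there. ECs do not rearrange these genes. The sort against CD45, a surface protein of most leukocytes, was aimed at removing blood cells, although plasma cells can carry little of it.

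Germline sequences of the variable genes on which the results turn follow, since 2 heavy and 2 kappa genes carried nearly all variable counts of library Sca-1+ 19 and other genes led in Sca-1- 22. They were read from GENCODE M21 transcripts on GRCm38 and are reference sequence, not the rearranged or mutated sequence of these cells. Capitals mark the codon of the conserved cysteine near the end of each variable gene. The joining segment, in heavy chains with a diversity segment before it, is added after the end of the gene. Igkv4-72 is given from within its first framework to its end, at chr6:69226854-69227138 on the minus strand. Ighv1-42 is given over the same length, at chr12:114937113-114937397 on the minus strand.
Igkv4-72: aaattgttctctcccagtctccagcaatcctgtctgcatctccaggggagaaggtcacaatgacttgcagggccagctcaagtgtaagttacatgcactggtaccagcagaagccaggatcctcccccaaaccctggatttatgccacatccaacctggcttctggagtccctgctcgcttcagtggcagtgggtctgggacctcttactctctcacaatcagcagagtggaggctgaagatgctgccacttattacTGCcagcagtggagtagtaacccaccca
Ighv1-42: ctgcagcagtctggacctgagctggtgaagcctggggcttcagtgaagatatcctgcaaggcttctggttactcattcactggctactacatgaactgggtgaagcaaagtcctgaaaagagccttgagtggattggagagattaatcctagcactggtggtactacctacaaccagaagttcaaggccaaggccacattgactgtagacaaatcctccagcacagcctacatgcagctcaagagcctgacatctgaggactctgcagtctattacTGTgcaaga

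The ends of the next genes, 90 bases each, are set out for comparison. The second heavy gene of Sca-1+ 19 was Ighv1-7 (chr12:114538495-114538584, minus strand). Its next kappa genes were Igkv5-43 (chr6:69823355-69823444, minus strand) and a row with the deposited symbol Igkv4-56 and the identifier ENSMUSG00000076557, which GENCODE M21 lists as a variable pseudogene (chr6:68961378-68961467, minus strand). Ighv5-2 (chr12:113578504-113578593, minus strand) and Igkv1-135 (chr6:67610419-67610508, plus strand) led in Sca-1- 22. Iglv1 (chr16:19085017-19085106, minus strand) led among the lambda genes in every library with lambda variable counts.
Ighv1-7: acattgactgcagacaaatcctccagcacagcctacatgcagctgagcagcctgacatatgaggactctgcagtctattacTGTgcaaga
Igkv5-43: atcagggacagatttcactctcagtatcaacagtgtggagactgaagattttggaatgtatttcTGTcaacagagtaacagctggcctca
Igkv4-56 (ENSMUSG00000076557): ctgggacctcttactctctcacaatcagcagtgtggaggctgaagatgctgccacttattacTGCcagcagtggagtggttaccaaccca
Ighv5-2: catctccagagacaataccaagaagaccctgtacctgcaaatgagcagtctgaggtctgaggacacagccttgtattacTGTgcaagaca
Igkv1-135: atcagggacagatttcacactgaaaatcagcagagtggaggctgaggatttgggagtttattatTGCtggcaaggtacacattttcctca
Iglv1: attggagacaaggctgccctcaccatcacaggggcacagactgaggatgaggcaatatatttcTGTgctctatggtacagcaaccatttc
The reference sequence of Igkv4-72 matched that of the pseudogene at 86.83% of 334 aligned bases and that of Igkv5-43 at 74.01% of 354. Ighv1-42 and Ighv1-7 matched at 84.86% of 350 bases. How reads that fit several such genes were counted is not given in the sources used here, so counts of close relatives are uncertain.

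Each library held 21581653 to 25959818 counts, and 3 counts, taken as the smallest level that could be told from 0, were 0.1156 to 0.139 CPM (counts scaled to library size). Ly6a, the gene of Sca-1, had 25643 to 35843 counts in the Sca-1+ libraries and 4 to 45 in the Sca-1- libraries, as the labels say. Most endothelial markers were far lower in the Sca-1- libraries. Pecam1, the gene of CD31, differed less, with 33397 to 45470 counts in Sca-1+ and 10070 to 24370 in Sca-1- libraries (edgeR adjusted p 0.247). Cdh5, the vascular cadherin, had 6895 to 8589 counts in Sca-1+ and 35 to 396 in Sca-1- libraries, and the summed level of 5 megakaryocyte and platelet markers was 25.41 to 75.07 CPM against 20610 to 35720 CPM. The summed level of 4 general leukocyte markers was 2.028 to 43.89 CPM in Sca-1+ and 1088 to 1445 CPM in Sca-1- libraries. Laptm5 and Coro1a led that sum in Sca-1-, while Cd52 overlapped between the fractions (2 to 429 counts in Sca-1+, 28 to 1857 in Sca-1-). In bulk samples, fewer cells of a type and less RNA per cell cannot be told apart. The running numbers that open the labels form separate ranges in Sca-1+ and Sca-1-, and an order of handling and the fraction cannot be told apart.

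Immunoglobulin RNA was spread very unevenly, and a single Sca-1+ library held most of it. In Sca-1+ 7, 13, 15 and 19 the members summed to 90, 34, 57 and 90746 counts, or 0.000373%, 0.000141%, 0.000231% and 0.3935% of the library. In Sca-1- 8, 10, 14, 16 and 22 they summed to 1381, 462, 3074, 2979 and 14680 counts, or 0.005564%, 0.001871%, 0.01288%, 0.01148% and 0.06802%. Library Sca-1+ 19 was thus 1055 times the next Sca-1+ library and 5.785 times the highest Sca-1- library, and it held 79.95% of the immunoglobulin counts of all 9 libraries. The other 3 Sca-1+ libraries all lay below every Sca-1- library, also among libraries of the same title code, the lowest of which was 5.015 times the highest of the 3. Among Sca-1- libraries, 22 was 5.281 times the next and held 65.02% of the counts of its fraction. The fractions therefore overlapped, through Sca-1+ 19 alone.

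Chains took different places in the libraries. Heavy chain rows had 68, 4, 20 and 28565 counts in Sca-1+ 7, 13, 15 and 19, and 1021, 379, 2144, 2451 and 11131 counts in Sca-1- 8, 10, 14, 16 and 22. Kappa rows had 10, 20, 10 and 60668 counts in the Sca-1+ libraries, and 276, 58, 815, 396 and 3023 counts in the Sca-1- libraries. Lambda rows had 5, 6, 2 and 573 counts in the Sca-1+ libraries, and 76, 25, 115, 132 and 526 counts in the Sca-1- libraries. Kappa counts exceeded heavy counts in Sca-1+ 19, while heavy counts exceeded kappa counts in all 5 Sca-1- libraries. Lambda counts were close in Sca-1+ 19 and Sca-1- 22, which differed widely in kappa.

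**Figure D1:**
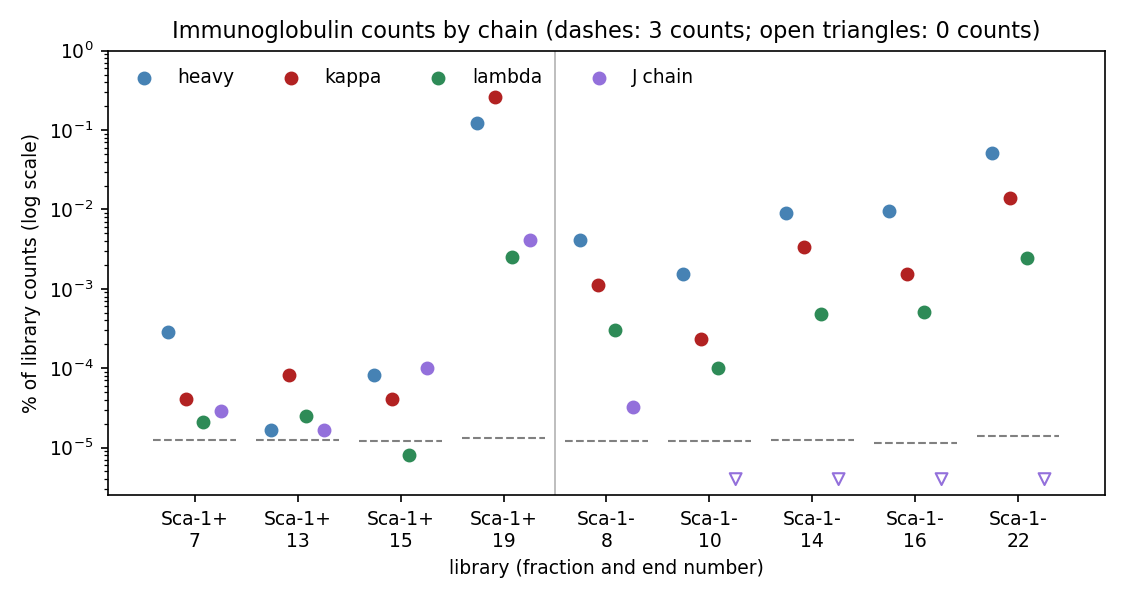
Share of each library's counts on heavy, kappa, lambda and J chain genes, in percent on a log axis, for the 4 Sca-1+ and 5 Sca-1- libraries; each point is 1 library, dashes mark the share of 3 counts and open triangles mark 0 counts. Sca-1+ 19 reaches 0.1239% for heavy and 0.2631% for kappa genes, far above the other 3 Sca-1+ libraries, and J chain is at 0 in 4 of the 5 Sca-1- libraries.

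The heavy chain constant genes gave IgG in Sca-1+ 19 and IgM in the Sca-1- libraries. Ighg2c, the IgG2c gene of this strain (chr12:113285325-113288932), had 0, 0, 0 and 20940 counts in Sca-1+ 7, 13, 15 and 19 and 1, 0, 0, 0 and 0 in Sca-1- 8, 10, 14, 16 and 22. Ighg1 (chr12:113325240-113330523) had 0, 0, 0 and 4152 counts in the Sca-1+ libraries and 0, 3, 0, 1 and 0 in the Sca-1- libraries. Both genes were thus above 3 counts in a single library of the 9. Ighg2b (chr12:113302965-113307933) had 0, 0, 0 and 145 counts in the Sca-1+ libraries and 21, 0, 25, 50 and 75 in the Sca-1- libraries, so it was the IgG gene with the broadest detection. Ighg3, Igha and Ighe were at 0 in every library.

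Ighm and Ighd ran the other way. Ighm (chr12:113418558-113422730) had 40, 0, 9 and 372 counts in Sca-1+ 7, 13, 15 and 19, and 936, 349, 1865, 2217 and 10242 counts in Sca-1- 8, 10, 14, 16 and 22. Ighd (chr12:113406604-113416324) had 21, 0, 0 and 0 counts in the Sca-1+ libraries, and 2, 11, 110, 67 and 131 counts in the Sca-1- libraries. Ighm was above Ighd in every library where either was counted. Relative to library size scaled by edgeR's TMM factors, Sca-1+ 19 was the highest Sca-1+ library for Ighm at 14.4 CPM and Sca-1- 10 the lowest Sca-1- library at 24.4 CPM, so the fractions did not overlap. On plain CPM they did, at 16.1 in Sca-1+ 19 and 14.1 in Sca-1- 10.

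As a share of heavy constant counts, Ighg2c made up 81.77% of the 25609 such counts in Sca-1+ 19 (exact 95% interval 81.29 to 82.24), Ighg1 16.21%, Ighm 1.453% and Ighg2b 0.5662%. Per kilobase of exon, since reads from a full-length cDNA kit grow with transcript length, these shares were 89.5%, 9.078%, 1.118% and 0.3069%. On either scale a single IgG gene took most of Sca-1+ 19. In Sca-1- 8, 10, 14, 16 and 22 Ighm took 97.5%, 96.14%, 93.25%, 94.95% and 98.03% of heavy constant counts, and Ighd 0.2083%, 3.03%, 5.5%, 2.869% and 1.254%. The 0 counts of Ighg2c among 10448 heavy constant counts of Sca-1- 22 allow a share of up to 0.0287% when 3 counts are taken as the limit (exact 95% upper bound 0.0353%). Intervals and such limits cover counting error only, since the libraries carry no molecular identifiers. Reference transcripts of Ighg2c and Ighg2b matched at 87.77% of aligned bases, and those of Ighg2c and Ighg1 at 80.66%, so part of the smaller IgG counts is uncertain.

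**Figure D2:**
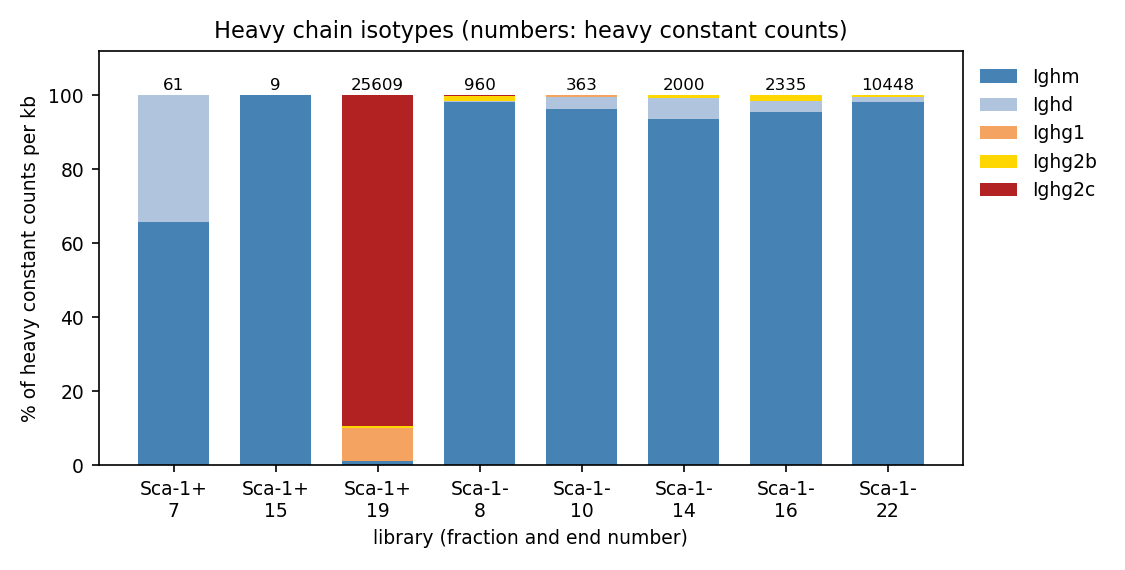
Heavy chain constant genes as a percent of heavy constant counts per kilobase in each library with such counts (Sca-1+ 13 had 0), stacked by gene; the number over each bar is the heavy constant count. Ighg2c takes 89.5% in Sca-1+ 19 and Ighm over 90% in each of the 5 Sca-1- libraries, and the bars of Sca-1+ 7 and 15 rest on 61 and 9 counts.

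Light chain usage also set Sca-1+ 19 apart. Igkc, the only kappa constant gene (chr6:70726435-70726966), had 9, 18, 7 and 51186 counts in Sca-1+ 7, 13, 15 and 19, and 236, 51, 689, 336 and 2462 counts in Sca-1- 8, 10, 14, 16 and 22. Kappa was 99.7% of light constant counts in Sca-1+ 19 (exact 95% interval 99.65 to 99.75). It was 78.93%, 69.86%, 88.11%, 75.17% and 84.84% in the Sca-1- libraries, the highest upper bound of which was 90.29%. The other 3 Sca-1+ libraries had only 9 to 24 light constant counts, too few to place their kappa share. Per kilobase, light constant genes stood at 5.467 times the heavy constant genes in Sca-1+ 19 and at 0.7032 to 1.412 times in the Sca-1- libraries.

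Among the lambda constant genes, Iglc1 (chr16:19061618-19062071) had 0, 0, 0 and 3 counts in the Sca-1+ libraries and 37, 12, 34, 6 and 130 in the Sca-1- libraries. Iglc2 (chr16:19198396-19200351) had 0, 0, 2 and 115 counts in the Sca-1+ libraries and 10, 2, 16, 21 and 201 in the Sca-1- libraries. Iglc3 (chr16:19065230-19065681) had 5, 6, 0 and 36 counts in the Sca-1+ libraries and 16, 8, 43, 84 and 109 in the Sca-1- libraries. Iglc1 was at or under 3 counts in all 4 Sca-1+ libraries and above it in all 5 Sca-1- libraries, whereas Iglc2 and Iglc3 overlapped between the fractions. Iglc4 was at 0 throughout. Iglc2 and Iglc3 matched at 95.33% of aligned reference bases, which leaves the split between them uncertain, and exons of Iglc3 overlap an annotated gene on the other strand.

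Jchain, whose product joins IgM and IgA into multimers and is abundant in plasma cells (chr5:88519809-88527891), had 7, 4, 25 and 940 counts in Sca-1+ 7, 13, 15 and 19, and 8, 0, 0, 0 and 0 in Sca-1- 8, 10, 14, 16 and 22. It was at 0 in 4 Sca-1- libraries that held 462 to 14680 immunoglobulin counts. In Sca-1+ 15 it made up 25 of the 57 immunoglobulin counts.

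Variable genes were few and steeply ranked in Sca-1+ 19. Of 12744 variable counts in that library, Igkv4-72 held 7767 and Ighv1-42 held 2427. Igkv4-72 was 81.92% of kappa variable counts (exact 95% interval 81.13 to 82.69), followed by Igkv5-43 at 1068 counts (11.26%) and the pseudogene row Igkv4-56 at 423 counts (4.462%). Ighv1-42 was 85.31% of heavy variable counts (83.95 to 86.59), followed by Ighv1-7 at 399 counts (14.02%). Each chain was thus carried by a leading gene and a few others. The leading gene and the next together made 99.33% of heavy and 93.19% of kappa variable counts. Per kilobase the leaders held 80.51% and 86.47%, so exon length changed these shares little.

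None of these leaders was a leader elsewhere. Igkv4-72 had 6 counts in Sca-1- 22, Ighv1-42 had 5, and both were at 0 in the other 7 libraries. Igkv5-43 had 6 counts in Sca-1- 14 and 2 in Sca-1- 22, and Ighv1-7 and the pseudogene row had counts in Sca-1+ 19 alone. Iglv1 led the lambda variable genes of Sca-1+ 19 with 392 counts (93.78%), and had 13, 2, 15, 17 and 42 counts in Sca-1- 8, 10, 14, 16 and 22. The variable gene family Ighv1 made up 99.79% of heavy variable counts in Sca-1+ 19, against 26.28%, 48.11% and 35.3% in Sca-1- 14, 16 and 22, the Sca-1- libraries with at least 100 heavy variable counts.

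The Sca-1- libraries showed many variable genes at low counts. At least 1 count was found on 24, 13, 34, 39 and 165 variable genes in Sca-1- 8, 10, 14, 16 and 22, from 113, 26, 283, 185 and 1255 variable counts. Sca-1+ 19 had 28 such genes from 12744 counts, and Sca-1+ 7, 13 and 15 had 4, 2 and 4 from 8, 6 and 14 counts. Sca-1- 22 thus had the most variable genes on fewer variable counts than Sca-1+ 19. Mean counts per detected gene were 7.606 in Sca-1- 22 and 455.1 in Sca-1+ 19.

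Since depth differed between these libraries, the number of genes expected in a draw of the same size from each was computed. In a draw of 100 variable counts, 7.31 genes were expected in Sca-1+ 19, and 23.5, 29, 32.6 and 60.6 in Sca-1- 8, 14, 16 and 22. In a draw of 26 counts, all that Sca-1- 10 held, 5.09 genes were expected in Sca-1+ 19 and 13 to 21.9 in the Sca-1- libraries. The inverse Simpson index, the number of equally used genes that would give the same evenness, was 2.393 in Sca-1+ 19 and 14.56, 6.036, 21.55, 17.17 and 58.55 in Sca-1- 8, 10, 14, 16 and 22. By each of these measures Sca-1+ 19 was the narrowest of the 6 libraries and Sca-1- 22 the widest, with no test across 1 library against 5.

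**Figure D3:**
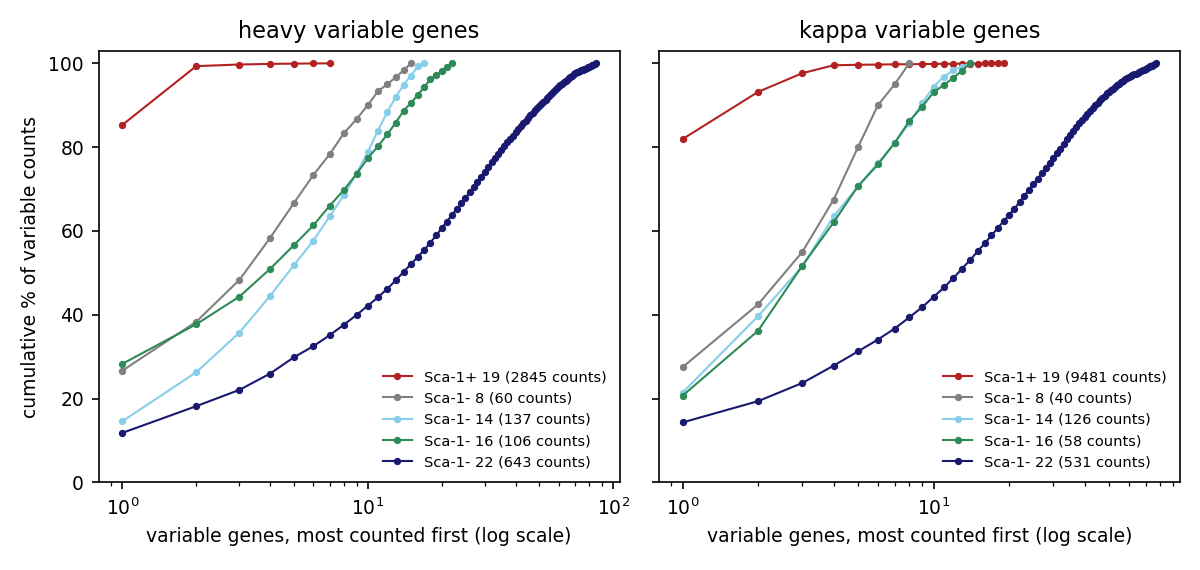
Cumulative percent of heavy (left) and kappa (right) variable counts against the number of variable genes, most counted first, on a log axis; each line is 1 library with its variable counts in the legend. Sca-1+ 19 passes 90% at the second gene in both panels, while Sca-1- 22 spreads its counts over 85 heavy and 77 kappa genes.

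Which genes led differed among the Sca-1- libraries. Ighv5-2 had 1, 0, 16, 2 and 76 counts in Sca-1- 8, 10, 14, 16 and 22 and was the leading heavy gene of 22, at 11.82% of its heavy variable counts. Igkv1-135 had 5, 0, 23, 9 and 76 counts in the same libraries and was the leading kappa gene of 22, at 14.31%. Ighv1-23, with 16, 9, 7, 10 and 6 counts, led in Sca-1- 8 and 10. Ighv5-17 had 30 counts in Sca-1- 16 and 13 in Sca-1- 22 and was at 0 elsewhere. No leader exceeded 28.3% of the heavy variable counts in a Sca-1- library with at least 100 of them. The Ighv5 family, whose genes include several close to the joining segments, made up 35.77%, 38.68% and 34.06% of heavy variable counts in Sca-1- 14, 16 and 22 and had 0 counts in Sca-1+ 19.

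Of 175 variable genes with a count in some Sca-1- library, 94 had it in Sca-1- 22 alone and 2 in all 5. All 34 of the variable genes of Sca-1- 14 were also among the 165 of Sca-1- 22 (20.61% of the latter), as were 35 of the 39 of Sca-1- 16, 20 of the 24 of Sca-1- 8 and 21 of the 28 of Sca-1+ 19. Since Sca-1- 22 held counts on 165 of 350 variable rows, wide sharing with it follows in part from its size. Libraries Sca-1+ 15 and Sca-1- 16, of the same mouse number, shared Ighv14-1 (9 and 4 counts) and Igkv14-111 (3 and 3 counts), which were 2 of the 4 variable genes of Sca-1+ 15 and 2 of the 39 of Sca-1- 16. Ighv14-1 also had 4 counts in Sca-1+ 13, and Igkv14-111 had 11 in Sca-1- 22, so neither was particular to this pair.

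Joining segments are short, and few reads fell on them. Their rows summed to 0, 0, 0 and 113 counts in Sca-1+ 7, 13, 15 and 19 and to 1, 0, 9, 10 and 68 in Sca-1- 8, 10, 14, 16 and 22. Ighj4, which encodes the last stretch of the heavy variable domain, held 108 of the 113 in Sca-1+ 19 and 16 of the 68 in Sca-1- 22. Heavy joining segments are given with the tryptophan codon and the first 2 bases of the glycine codon of their conserved motif in capitals, because 1 of them held most joining counts of Sca-1+ 19.
Ighj4: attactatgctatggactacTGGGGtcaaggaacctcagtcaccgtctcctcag
Ighj3: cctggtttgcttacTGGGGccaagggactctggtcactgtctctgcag
Ighj1: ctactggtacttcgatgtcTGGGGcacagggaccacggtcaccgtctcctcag
They lie on GRCm38 at chr12:113428514-113428567 (Ighj4), chr12:113429085-113429132 (Ighj3) and chr12:113429781-113429833 (Ighj1), all on the minus strand. Ighj1 had 3 counts in Sca-1+ 19 and 4 in Sca-1- 22, and Ighj3 had 0 and 8. Diversity segments were at 0 in 7 libraries, with 2 counts in Sca-1- 16 and 7 in Sca-1- 22.

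Differences between the fractions were tested with edgeR's quasi-likelihood test over 15937 genes, with Benjamini-Hochberg adjustment over all of them. Of these genes 44.8% had an adjusted p under 0.05, 21.4% as higher in Sca-1- and 23.3% as higher in Sca-1+. Only 8 of the 398 members passed the filter on low counts, and the other 390 were not tested. The filter asks for about 10 counts in at least 4 libraries, which no member had in all 4 Sca-1+ libraries. Each of the 8 thus needed Sca-1- libraries to pass, and Iglc2 needed Sca-1+ 19 as well. Members high in Sca-1+ 19 alone, such as Ighg2c, could not enter, and the counts that follow do not bear on a direction of the members as a group. Of the 8, 2 were higher in Sca-1-, beside the 21.4% of all genes, and 0 were higher in Sca-1+ (3 of the 8 had an unadjusted p under 0.05). Their median log2 fold change (Sca-1+ over Sca-1-) was -1.57, against 0.07 over all genes tested.

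The called genes were Ighm and Iglc1. Ighm was lower in Sca-1+, where its mean was 4.02 ± 6.95 CPM (SD, n = 4), than in Sca-1-, where it was 130.1 ± 161.8 CPM (SD, n = 5). Its log2 fold change was -5.02 (SE 1.55, edgeR adjusted p 0.0229). Iglc1 had 3 counts in all Sca-1+ libraries together and 219 in the Sca-1- libraries, a ratio of 75.9 per unit of library size (95% counting interval 25.6 to 371) with an edgeR adjusted p of 0.0054. The Ighm call ended without Sca-1+ 7 (log2 fold change -4.73, edgeR adjusted p 0.064) and without Sca-1+ 15 (-4.63, 0.0554), and without Sca-1- 22 the log2 fold change was -3.87 (0.0483). Iglc1 reached 10 counts in no Sca-1+ library, entered through the fraction where it was high and fell below the filter without Sca-1- 8, 10, 14 or 22. Without Sca-1- 22, which held 130 of its 219 counts, its ratio was 39.8 (13.2 to 197).

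The other 6 tested members did not pass. Igkc had the widest spread, with a mean of 495.7 ± 990.7 CPM in Sca-1+ (SD, n = 4) and of 31.7 ± 39.5 CPM in Sca-1- (SD, n = 5). Its log2 fold change of 3.97 (SE 2.21, edgeR adjusted p 0.17) rested on Sca-1+ 19. Iglv1 was at 2.29 (SE 1.78, edgeR adjusted p 0.324) and likewise rested on that library. Ighd was at -3.83 (edgeR adjusted p 0.0692), Iglc3 at -2.26 (0.123), Iglc2 at -0.88 (0.699) and Ighg2b at -0.02 (0.995).

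A fit without Sca-1+ 19 gave other calls. Then 7 of 8 tested members were higher in Sca-1-, where 18.9% of all genes tested were, but members at 0 in the remaining 3 Sca-1+ libraries could pass the filter through Sca-1- alone, so this count is no support for a shared direction. Igkc turned to a log2 fold change of -6.33 (edgeR adjusted p 0.00424) and Ighm stood at -7.85 (0.00408). Ighg2b, Iglv1 and Iglc1 were at 0 in the remaining 3 Sca-1+ libraries, and taken against 3 counts per library they were at least 13.7-fold, 7.46-fold and 19.5-fold lower there (for Iglc1 11.4-fold also without Sca-1- 22). Ighd alone of the 8 was not called, with 21 counts in Sca-1+ 7 (edgeR adjusted p 0.135). The direction of the fraction difference in kappa thus turned on 1 library, while Ighm and Iglc1 were called with and without it.

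Genes of the B lineage that do not encode antibody were set beside the members. Sca-1+ 19 and Sca-1- 22 differed there as well. Cd79a, a signalling chain of the B cell receptor, had 11, 13, 12 and 13 counts in Sca-1+ 7, 13, 15 and 19 and 79, 20, 313, 229 and 1384 in Sca-1- 8, 10, 14, 16 and 22. Its partner Cd79b had 16, 17, 0 and 74 counts in the Sca-1+ libraries and 198, 86, 786, 581 and 2214 in the Sca-1- libraries. Sca-1+ 19 was therefore level with its fraction in Cd79a and above it in Cd79b, but below all 5 Sca-1- libraries in counts of both, although it held the most immunoglobulin counts. Ms4a1, which encodes CD20, was at 0 in all Sca-1+ libraries and at 22, 28, 0, 15 and 5 counts in the Sca-1- libraries.

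Several genes of B cell progenitors were at or near 0 in the Sca-1+ libraries. Igll1, a part of the surrogate light chain that pairs with new heavy chains before light chains are made, had 7, 0, 0 and 0 counts in Sca-1+ 7, 13, 15 and 19 and 56, 16, 126, 155 and 1231 in Sca-1- 8, 10, 14, 16 and 22. Vpreb3 had 0, 0, 0 and 10 counts in the Sca-1+ libraries and 65, 4, 522, 245 and 1298 in the Sca-1- libraries. Rag1, which cuts the segments for joining, was at 0 in all Sca-1+ libraries and at 18, 4, 28, 20 and 176 counts in the Sca-1- libraries. For these 3 genes the highest library was Sca-1- 22. Il7r was highest in Sca-1- 16 (645 counts, against 308 in 22) and Rag2 in Sca-1- 14 (211, against 198 in 22), both at 0 in all Sca-1+ libraries. Lef1, also a gene of T cells, had 84 to 236 counts in the Sca-1+ and 6 to 676 in the Sca-1- libraries (edgeR adjusted p 0.621). Of 9 progenitor markers 7 were tested and 6 were higher in Sca-1-, beside 21.4% of all genes tested. Igll1, Vpreb3, Rag1, Rag2 and Il7r could not pass the filter without Sca-1- libraries, where they were high. That count therefore does not bear on a direction of the list. The summed level of the 9 markers was 4.727 to 10.7 CPM in Sca-1+ and 3.2 to 202.9 CPM in Sca-1- libraries.

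Of 13 B cell markers 6 were tested, of which 3 (Cd79a, Cd79b and Fcrla) were higher in Sca-1- and 3 (Ebf1, Cd74 and H2-Aa) higher in Sca-1+. Among all genes tested, 21.4% were higher in Sca-1- and 23.3% higher in Sca-1+. Fcrla and Cd79b could not pass the filter without Sca-1- libraries, where they were high. These counts therefore do not bear on a direction of the list. Cd74 and H2-Aa serve antigen presentation on MHC class II in several cell types, and Ebf1 is also a gene of stromal cells. The summed level of the list, 166.2 to 919.4 CPM in Sca-1+ and 11.95 to 315.7 CPM in Sca-1- libraries, was highest in Sca-1+ 19. Cd74 (12115), Ebf1 (6734) and H2-Aa (2239) held most of the 21199 summed counts of that library. Cd79a, Cd79b and Fcrla were instead highest in Sca-1- 22, at 1384, 2214 and 602 counts. The part of B lineage cells in the immunoglobulin counts was not tested.

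Plasma cell markers split into a group that moved with Sca-1+ 19 and a group that did not. Mzb1, an endoplasmic reticulum protein that helps antibody assembly, had 1, 0, 0 and 134 counts in Sca-1+ 7, 13, 15 and 19, and 8, 2, 119, 8 and 300 in Sca-1- 8, 10, 14, 16 and 22. Tnfrsf17, the survival receptor BCMA, had 8 counts in Sca-1+ 19, 1 in Sca-1- 10 and 3 in Sca-1- 16, and was at 0 in the other 6 libraries. Pou2af1, a coactivator of immunoglobulin promoters, had 0, 0, 0 and 32 counts in the Sca-1+ libraries and 42, 4, 48, 37 and 635 in the Sca-1- libraries. These 3 genes were above the rest of its fraction in Sca-1+ 19.

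Sdc1, Prdm1 and Xbp1, which also mark plasma cells, were high in all 4 Sca-1+ libraries. Sdc1 had 1376, 724, 915 and 1176 counts in Sca-1+ 7, 13, 15 and 19 and 51 to 416 in the Sca-1- libraries. Prdm1 had 1249, 801, 1088 and 899 counts in the Sca-1+ libraries and 0 to 53 in the Sca-1- libraries. Sca-1+ 19 lay inside the range of its fraction for both. Xbp1 had 19237, 29976, 20934 and 13813 counts in the Sca-1+ libraries and 3954 to 7487 in the Sca-1- libraries, so Sca-1+ 19 was the lowest of its fraction. Irf4 was at 0 in Sca-1+ 19 and had 205 counts in Sca-1- 22. Derl3 (19, 14, 5 and 5 counts in Sca-1+ 7, 13, 15 and 19), Txndc5 (4121, 2074, 1469 and 2065), Creld2 (2256, 3028, 1965 and 2240) and Fkbp11 (341, 321, 330 and 350) showed no clear rise in Sca-1+ 19. Tnfrsf13b had 30, 32, 21 and 58 counts in the same libraries. Of 12 plasma cell markers 9 were tested. Among these, 3 (Sdc1, Prdm1 and Xbp1) were higher in Sca-1+, beside 23.3% of all genes tested. Only 1 (Tnfrsf13b) was higher in Sca-1-, beside 21.4%. The summed level, led by Xbp1, was 901.2 to 1533 CPM in Sca-1+ and 300.0 to 668.9 CPM in Sca-1- libraries. The part of plasma cells in Sca-1+ 19 was not tested.

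Some neutrophil genes also stood apart in Sca-1+ 19. S100a9, a calcium-binding protein of neutrophils, had 32, 22, 47 and 4706 counts in Sca-1+ 7, 13, 15 and 19 and 1480, 353, 153, 513 and 341 in Sca-1- 8, 10, 14, 16 and 22. Ngp, a neutrophil granule protein, had 18, 13, 68 and 6183 counts in the Sca-1+ libraries and 2255, 619, 26, 14 and 959 in the Sca-1- libraries. Lcn2, S100a8, Camp and Ltf were likewise highest in Sca-1+ 19 within the fraction. Elane and Mpo, granule enzymes of immature neutrophils, were not, with 472, 52, 10 and 21 counts of Elane and 1030, 177, 6 and 20 of Mpo in Sca-1+ 7, 13, 15 and 19. The 8 neutrophil markers summed to 870 CPM in Sca-1+ 19 and 9.693 to 69.15 CPM in the other 3 Sca-1+ libraries, while the Sca-1- libraries lay between 148.9 and 735.9 CPM. Of the 8 markers, all tested, 1 (Mpo) was higher in Sca-1-, beside 21.4% of all genes tested, and 0 higher in Sca-1+, beside 23.3%. Ptprc, the gene of CD45, had 24, 0, 0 and 66 counts in the Sca-1+ libraries and 286, 320, 407, 1440 and 976 in the Sca-1- libraries. The 7 endothelial markers of Sca-1+ 19 summed to 6605 CPM, within the 6128 to 6790 CPM of the other 3 Sca-1+ libraries, with 7103 counts of Cdh5. Single markers differed more. Emcn had 15968 counts in Sca-1+ 19, against 25703 to 28440 in the other 3, and Pecam1 was the highest of the fraction at 45470. Other lists were also highest in Sca-1+ 19 within the fraction. Monocyte and macrophage markers summed to 203.8 CPM, against 16.3 to 22.18 CPM in the other 3 Sca-1+ libraries. Erythroid markers summed to 181.1 against 40.79 to 46.72 CPM, and general leukocyte markers to 43.89 against 2.028 to 7.628 CPM. Megakaryocyte markers (25.41 CPM) and T and NK markers (0 counts) were lowest there. The part of neutrophil or other blood cell RNA was not tested.

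**Figure D4:**
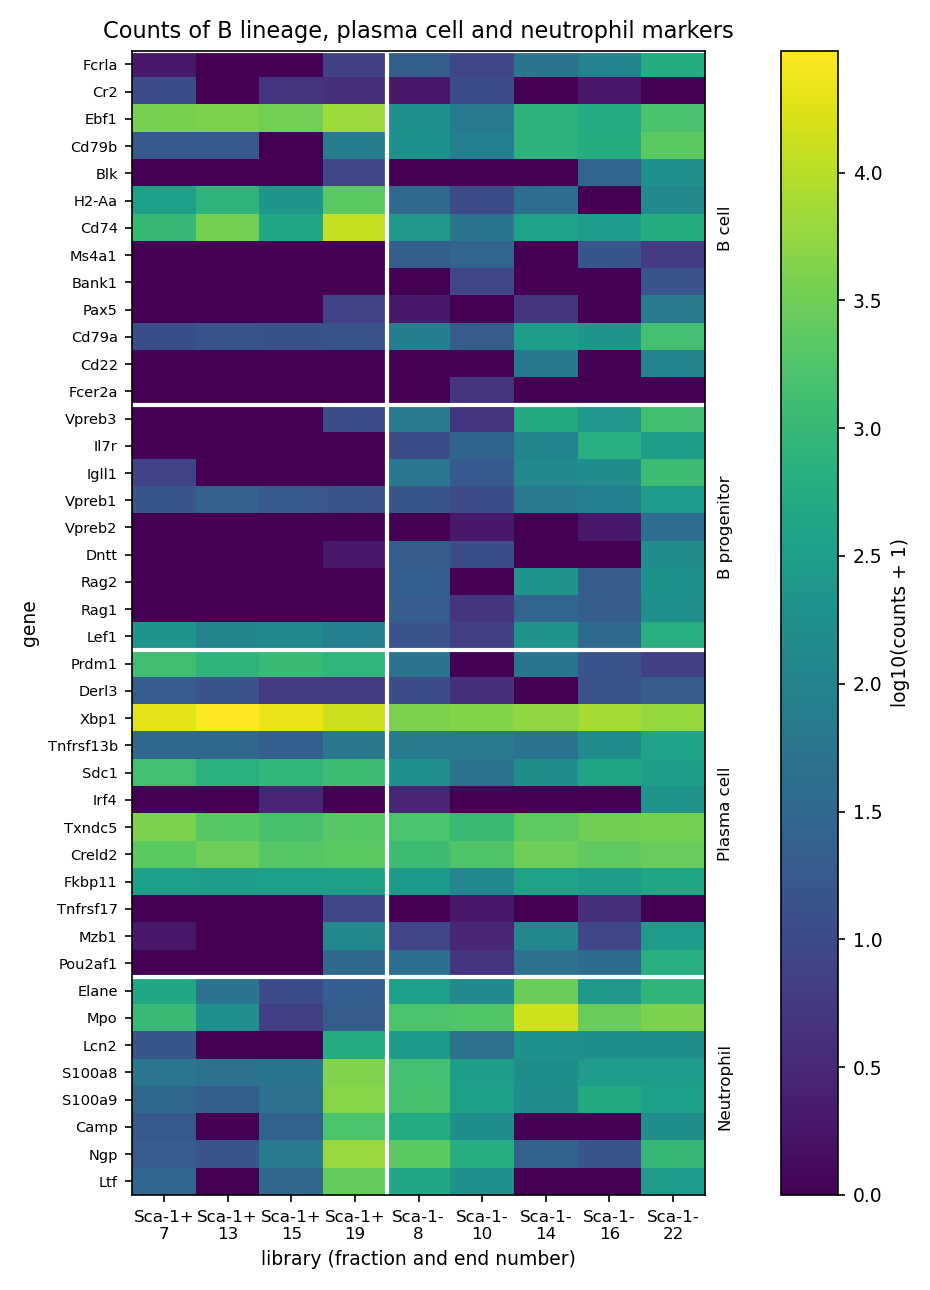
Counts of B cell, B progenitor, plasma cell and neutrophil markers in each library, as log10 of the count plus 1, with Sca-1+ libraries left of the vertical line. Sca-1- 22 is the brightest column for Cd79a, Vpreb3, Igll1 and Pou2af1, and Sca-1+ 19 stands out from its fraction for Mzb1 and for S100a8, S100a9, Camp, Ngp, Ltf and Lcn2 but not for Cd79a.

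Receptors that bind or carry antibody were read as a last group. Fcgrt, which encodes the receptor that saves IgG from breakdown in ECs, had 44945, 56226, 51541 and 24841 counts in Sca-1+ 7, 13, 15 and 19 and 1444, 369, 1905, 3838 and 1926 in Sca-1- 8, 10, 14, 16 and 22, a log2 fold change of 4.28 (SE 0.45, edgeR adjusted p 6.91e-05). Fcgr2b, the inhibitory IgG receptor of sinusoidal endothelium and B cells, had 1181 to 1768 counts in the Sca-1+ libraries and 16, 40, 200, 654 and 116 in the Sca-1- libraries (log2 fold change 2.79, SE 0.71, edgeR adjusted p 0.00902). Neither gene overlapped between the fractions. Of 11 such genes 6 were tested. Fcgr3, Fcer1g, Fcer1a and Ms4a2 were the 4 higher in Sca-1-, beside 21.4% of all genes tested. Fcgrt and Fcgr2b were the 2 higher in Sca-1+, beside 23.3%. Fcer1a and Ms4a2 could not pass the filter without Sca-1- libraries, where they were high. Pigr and Fcamr, receptors for polymeric antibody, were at 0 in every library.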

How the data were processed

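RNA-seq was made from CD45- Ter119- CD31+ bone marrow cells, split by Sca-1, with the SMART-Seq v4 full-length cDNA kit, which adds no molecular identifiers. The authors deposited raw read counts per gene for 9 libraries, without normalization; the submitters' processing notes name STAR, featureCounts and mm10, but versions, strand and treatment of multiply mapped reads are not given in the sources used here. No sample column was left out (0 not used). Groups came from the labelled sort. The 398 members and all gene lists were chosen with earlier results of these data known, and 1 B cell marker is not reported here.

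Counts per library lay between 21581653 and 25959818, so 3 counts, the floor used, were 0.1156 to 0.139 CPM. Differences were tested in R 4.3.3 with edgeR 4.0.16 (filterByExpr with a minimum count of 10 and total of 15, TMM, quasi-likelihood test, two-sided, Benjamini-Hochberg adjustment over all 15937 genes tested, threshold 0.05). CPM of tested genes used TMM-scaled library sizes, and percents of a library used its total count. Shares carry exact Clopper-Pearson 95% intervals (scipy 1.17.1), and expected variable genes at 26 and 100 counts came from analytic rarefaction. All members and the 5 variable genes with the most counts in each library were eligible to be named. Names were the deposited gene symbols. Exon lengths, coordinates and germline sequences were those of GENCODE M21 (GRCm38), which holds the identifiers of all 398 members. Identity was computed from global alignments in Biopython 1.88. Alternatives were other normalizations, no filter, DESeq2 1.42.0, limma 3.58.1 voom, left-out libraries and a block of libraries with consecutive end numbers. The steps were tested on simulated data, and no libraries were copies of each other. Plots used matplotlib 3.10.9.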

Additional observations from a re-analysis of the deposited data

Results flagged for a closer look

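In groups of 4 or 5 libraries, the highest or lowest value was flagged where its gap to the nearest other value took more of the group's range than Dixon's 95% limit allows. Of 32 groups examined, 28 were flagged. Dixon's limit flags about 1 in 20 groups of continuous values by chance, but a group in which all other libraries are at 0 is always flagged, so that rate does not hold here. The measures also share counts, so the flags are not independent of each other.

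In Sca-1+ 19 the flagged shares of library counts were 0.3935% for all immunoglobulin genes (0.000141% to 0.000373% in the other 3), 0.1239% for heavy, 0.2631% for kappa, 0.002485% for lambda and 0.004077% for J chain. The flagged counts of that library were 20940 for Ighg2c, 145 for Ighg2b, 4152 for Ighg1, 372 for Ighm, 3 for Iglc1, 36 for Iglc3, 115 for Iglc2, 940 for Jchain and 51186 for Igkc. It also stood apart with 28 variable genes, against 2 to 4 in the other 3.

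In Sca-1- 22 the flagged shares were 0.06802% for all immunoglobulin genes (0.001871% to 0.01288% in the other 4), 0.05158% for heavy, 0.01401% for kappa and 0.002437% for lambda. The flagged counts were 10242 for Ighm, 130 for Iglc1, 201 for Iglc2 and 2462 for Igkc, and 165 variable genes had a count, against 13 to 39.

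Small counts were flagged where every other library of the fraction was at 0. These were Jchain in Sca-1- 8 with 8 counts (3.22e-05% of the library), Ighg2c in Sca-1- 8 with 1 count and Ighd in Sca-1+ 7 with 21 counts.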

How the results depend on the processing

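The number of members called higher in Sca-1- was 2 and became 7 with no filter on low counts (207 tested), 4 with limma voom, 6 without both Sca-1+ 19 and Sca-1- 22, and 1 to 7 when single libraries were left out, 7 of them without Sca-1+ 19 and 1 without Sca-1+ 15 or Sca-1- 10, 14 or 22. Members called higher in Sca-1+ went from 0 to 6 with no filter (Ighg2c, Ighg1, Ighv1-42, Igkv4-72, Igkv5-43 and Jchain); the first 5 were at 0 in every Sca-1+ library but 19. The labels share no replicate number between fractions, although 15 and 16 share a mouse number. Deviations from the group means of libraries with consecutive end numbers correlated at 0.147 (7 and 8), 0.148 (13 and 14) and 0.042 (15 and 16). The other pairs across the fractions lay between -0.191 and 0.065, so 7 with 8 and 13 with 14 were the highest. Libraries 15 and 16, of the same mouse number, lay inside the range of the other pairs, so these values do not decide which libraries pair. The main fit used no pairing. With the 6 libraries of consecutive end numbers and a replicate block 3 members were called higher in Sca-1-, and 5 without the block.

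Ighg2b turned from -0.02 to a log2 fold change of 0.11 with library size only and ranged from -8.12 to 0.47 when single libraries were left out. Iglv1 turned from 2.29 to -2.89 with limma voom, -7.13 with and without the replicate block, -6.73 without both Sca-1+ 19 and Sca-1- 22, and ranged from -7.25 (without Sca-1+ 19) to 2.81 when single libraries were left out. Igkc turned from 3.97 to -2.75 with limma voom, -5.53 with the block, -5.54 without it, -5.21 without both libraries, and ranged from -6.33 (without Sca-1+ 19) to 5.08 when single libraries were left out. For Iglv1 and Igkc every reversal but that with limma voom came from a fit that lacked Sca-1+ 19. The 6 libraries of the fits with and without the replicate block do not include it. The cause of the limma voom reversals and of those of Ighg2b was not tested.

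With variable and joining rows included, kappa was 99.06% of light counts in Sca-1+ 19. Variable genes with at least 3 counts numbered 16 in Sca-1+ 19, 15 in Sca-1- 8 and 24 in Sca-1- 16, and with at least 10 counts 10, 3 and 4, 10 in Sca-1- 14 and 42 in Sca-1- 22. Without Ighm and Ighd, Ighg2c was 82.97% of the rest in Sca-1+ 19 and Ighg2b 100% in Sca-1- 22. Of the values that answer a comparison, 46 of 67 alternatives stayed within their limits. Taking in rows with -ps gave no value, since 0 such rows match. Depth limits Sca-1+ 7, 13 and 15, with 34 to 90 immunoglobulin counts each.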

Other observations

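Over all 9 libraries, the genes whose log2 CPM ran most like the summed immunoglobulin level were Gm7353 (Pearson r 0.91), Lcn2 (0.906), Ly6d (0.905), Ctss (0.889), Mmp8 (0.875), Ly86 (0.867), 6230400D17Rik (0.866), Cab39l (0.86), Otud6b (0.859) and S100a9 (0.856). These are descriptions over 9 points that share libraries and depth, with Sca-1+ 19 and the 3 lowest Sca-1+ libraries at the ends. Ly6d, a surface marker of early B lineage cells, had 22, 0, 0 and 280 counts in Sca-1+ 7, 13, 15 and 19 and 76, 13, 198, 217 and 770 in Sca-1- 8, 10, 14, 16 and 22. Mmp8, a neutrophil collagenase, had 0, 0, 0 and 143 counts in the Sca-1+ libraries and 45, 11, 48, 37 and 11 in the Sca-1- libraries. Both had their highest Sca-1+ value in library 19.

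Lambda genes were out of proportion in Sca-1+ 19. Per kilobase of exon, Iglv1 stood at 1003 counts there, against 6.608 for Iglc1, 187.9 for Iglc2 and 79.65 for Iglc3. In Sca-1- 22 Iglv1 stood at 107.4 counts per kilobase and the same constant genes at 286.3, 328.4 and 241.2. Iglv1 was above each lambda constant gene in the first library and below each in the second. Iglv1 and Iglv2 matched at 96.72% of aligned reference bases, and the cause was not tested.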
